A study of Mus musculus with 9 samples.

Results

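The 4 genes of the myocyte enhancer factor 2 (MEF2) family, Mef2a, Mef2b, Mef2c and Mef2d, were followed in sorted cortical neurons of Tau P301S mice given a Cdk5 inhibitor peptide. They are 4 of the 55401 genes in the count files, taken by symbol as a family of known Cdk5 substrates after earlier results of these data were known. All 4 passed the filter on low counts. RNA was sequenced from NeuN(+) nuclei, and NeuN is a neuronal nuclear protein on which nuclei are commonly sorted. The groups were P301S mice given Cdk5i, P301S mice given a scrambled peptide, and untreated wild-type mice, with 3 libraries each. Cdk5i is an inhibitor peptide derived from Cdk5 itself. The mice were 7 to 9 months old, and both peptides were injected into the abdomen at 20 mg/kg every other day. Wild-type mice received no injection, so genotype and injection cannot be told apart against wild type. The promoter that drives the mutant tau, the sex of the mice and whether each library came from a separate animal are not given in the sources used here, so the p-values measure the spread between these libraries, which may be technical.

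MEF2 proteins bind DNA as dimers through a MADS box and an adjoining MEF2 domain at an A/T-rich element, and they carry a transcription activation domain behind it. In neurons they respond to calcium: calcineurin and the kinases p38 and ERK5 are known to activate them, class IIa histone deacetylases bind and silence them, and Cdk5 phosphorylates the activation domain of members such as MEF2A and MEF2D and lowers their activity. MEF2 factors are known for restraining excitatory synapse number and for keeping neurons alive, and Mef2c is also a gene of cortical neuron development. RNA counts read the transcripts of these genes, not phosphorylation or protein.

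The libraries held 21584712 to 26715938 counts in genes. Counts were of whole gene bodies, introns included, so they weigh unspliced nuclear RNA by gene length. Pan-neuronal markers such as Syt1, Map2 and Rbfox3 were abundant, and their 8 genes summed to 5801 to 6838 CPM per library, where CPM are counts scaled to a common library size. The 10 endothelial and mural markers summed to 4.51 to 6.74 CPM. Of the microglia markers, Itgam had 0 counts in all libraries and Tmem119, C1qa, C1qb, C1qc and Trem2 had at most 5 counts in any. Striatal projection neurons are not expected in cortex, and 9 genes listed as their markers were read as well. They summed to 2849 ± 486 CPM in Cdk5i libraries, 2169 ± 429 CPM in scrambled libraries and 2250 ± 533 CPM in wild-type libraries (SD, n = 3 each). Pde10a made up most of these sums, at a mean of 1794 CPM, followed by Meis2 at 344 CPM. Drd1, Drd2 and Adora2a averaged 9.71, 51.0 and 6.70 CPM. Whether these counts came from striatal cells was not tested. By gene, 8 of 9 gave a positive log2 fold change in scrambled against wild type and 9 of 9 in Cdk5i against wild type. Their medians were 0.30 and 0.52, with none past the threshold used below. Of all genes tested, 51.7% and 48.8% were positive in these comparisons. The part of these markers in the results was not tested beyond the values given with the alternatives.

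The members share the start of their coding sequence, which encodes the MADS box. The first 120 coding bases of 1 transcript of each gene are shown because they are the part in which reads could be confused between members (GENCODE M21 on GRCm38, with capitals for bases that differ from Mef2a; each stretch is split between exons). The genomic spans are chr7:67295513-67316845 on the minus strand for Mef2a, chr8:70164251-70165113 on the plus strand for Mef2b, chr13:83575677-83592843 on the plus strand for Mef2c, and chr3:88155809-88156387 on the plus strand for Mef2d.
Mef2a: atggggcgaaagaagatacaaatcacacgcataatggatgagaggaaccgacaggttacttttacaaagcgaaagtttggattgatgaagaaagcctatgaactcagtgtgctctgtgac
Mef2b: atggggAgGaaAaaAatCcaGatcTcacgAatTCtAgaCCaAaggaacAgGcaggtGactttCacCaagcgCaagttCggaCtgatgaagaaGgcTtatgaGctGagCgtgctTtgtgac
Mef2c: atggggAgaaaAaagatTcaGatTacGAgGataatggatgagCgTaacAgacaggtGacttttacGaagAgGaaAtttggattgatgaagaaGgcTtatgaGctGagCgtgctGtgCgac
Mef2d: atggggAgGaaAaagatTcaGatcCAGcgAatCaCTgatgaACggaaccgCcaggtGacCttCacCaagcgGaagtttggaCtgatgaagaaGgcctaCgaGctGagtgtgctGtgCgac

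Mef2c matched Mef2a at 80.8% of these bases, Mef2d at 77.5% and Mef2b at 76.7%. The differing bases are spread along the stretch. No run of 40 bases, the length of 1 sequenced read, was shared between the annotated transcripts of any 2 members on either strand. Introns were not compared.

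**Figure D1:**
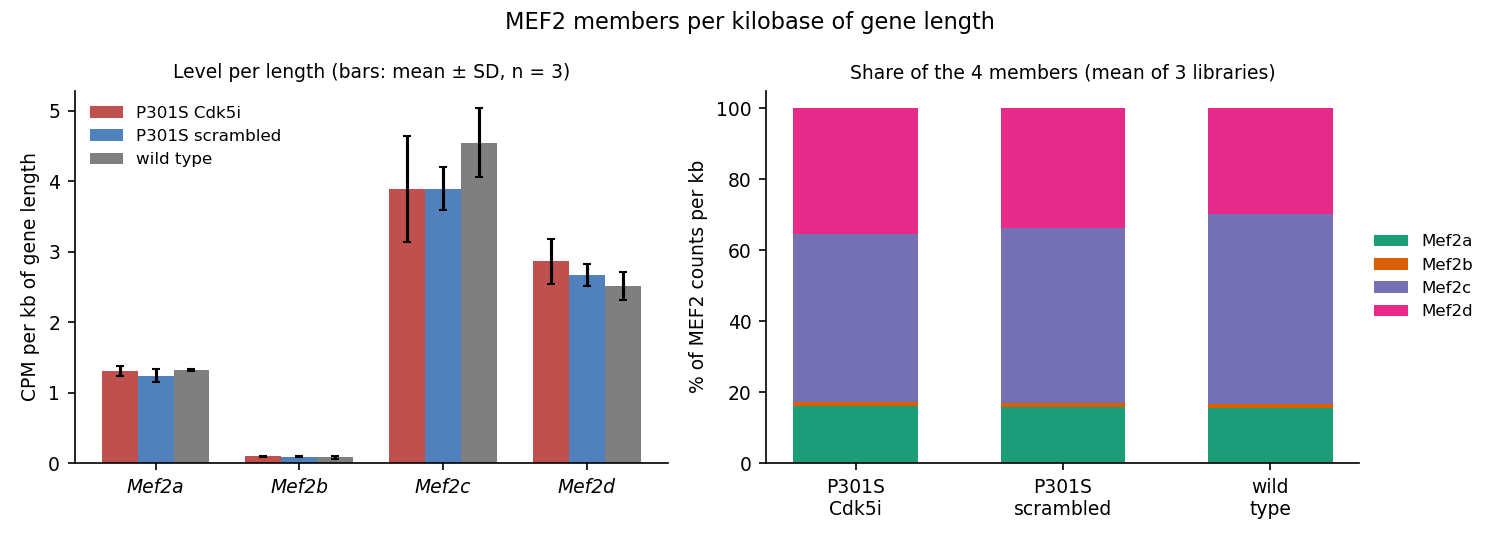
MEF2 family composition by group. Left, the level of each gene in CPM per kilobase of gene length (bars, mean; error bars, SD of 3 libraries), and right, each gene's percent of the family's counts per kilobase (stacked means of 3 libraries). Mef2c leads in each group, with 47.4% in Cdk5i libraries, 49.3% in scrambled libraries and 53.7% in wild-type libraries, and Mef2b stays near 1%.

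Mef2c was the most abundant family member in these nuclei. Over the 9 libraries it averaged 671 CPM and ranked 227 among the 16046 genes tested. The median over all genes tested was 0.548 CPM per kilobase of whole gene length. On this scale Mef2c averaged 4.11 CPM, Mef2d 2.68 CPM, Mef2a 1.29 CPM and Mef2b 0.0894 CPM. This order held in each of the 9 libraries: per kilobase, Mef2c took 42.0% to 57.2% of the family's counts, Mef2d 27.2% to 39.2%, Mef2a 14.3% to 17.6% and Mef2b 0.803% to 1.29%. By counts without the length, Mef2a (182 CPM, a gene of 141.7 kb) stood above Mef2d (79.8 CPM, 29.7 kb), so the order of Mef2a and Mef2d depends on the scale.

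None of the 4 members differed between groups past the threshold (edgeR quasi-likelihood test over 16046 genes, Benjamini-Hochberg adjusted p under 0.05). The share of all tested genes past it was 0.081% in scrambled against wild type (13 genes), 0.0125% in Cdk5i against scrambled (2 genes) and 0.0748% in Cdk5i against wild type (12 genes). DESeq2 and limma-voom also put 0 of the 4 past the threshold in each comparison. At an unadjusted p under 0.05, edgeR gave 0 members in the first and second comparison and 1 in the third, Mef2d, against 1614, 855 and 1770 genes in all. No member had 2 groups whose libraries were fully apart. The share of all tested genes with groups fully apart was 16.3%, 10.3% and 16.3% in the same order. The 3 comparisons share libraries and are not independent of each other.

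**Figure D2:**
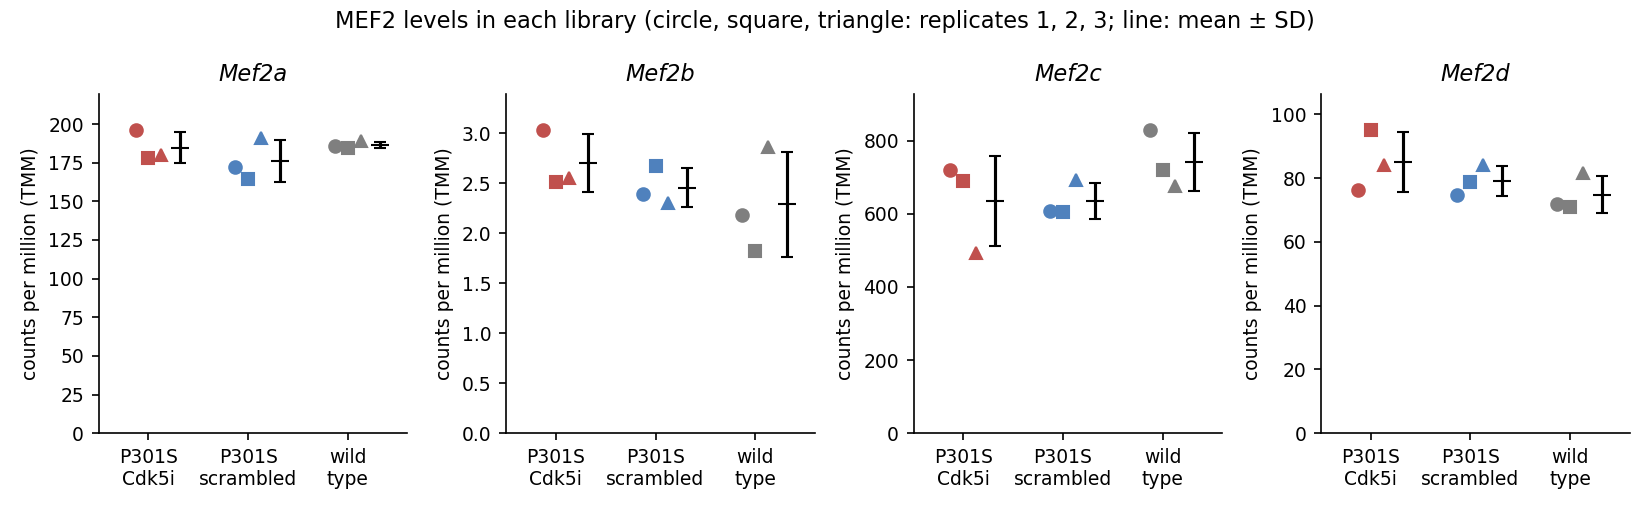
Level of each MEF2 gene in every library (CPM with TMM scaling; each axis starts at 0). Circles, squares and triangles are replicates 1, 2 and 3, whose numbers are not known to pair libraries across groups, and black lines are the mean ± SD. The groups overlap for each gene, and the Mef2c libraries spread the most in the Cdk5i group, between 494 and 719.9 CPM.

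Mef2c (ENSMUSG00000005583, chr13:83504034-83667080, plus strand, GRCm38) is the member tied most closely to cortical neuron development. It had 719.9, 691 and 494 CPM in the Cdk5i libraries, 608, 606 and 692 CPM in the scrambled libraries, and 829.9, 721 and 675 CPM in the wild-type libraries. The highest library was wild type, the lowest was Cdk5i replicate 3, and each pair of groups overlapped. The log2 fold change was -0.22 ± 0.13 (SE) for scrambled against wild type, with a 95% interval of -0.52 to 0.07 and an adjusted p of 0.614 by edgeR. The interval corresponds to folds of 0.697 to 1.05.

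Between the peptides, the Mef2c means were 635 ± 123 CPM with Cdk5i and 635 ± 49.2 CPM with the scrambled peptide (SD, n = 3 each). The log2 fold change was -0.00 ± 0.13, with an interval of -0.30 to 0.30, so changes of up to about 1.23-fold in either direction lie inside it. Cdk5i against wild type gave -0.23 ± 0.13 (interval -0.52 to 0.07, edgeR adjusted p = 0.583). Cdk5i replicate 3 moved these values: without it, the log2 fold change was 0.16 for Cdk5i against scrambled and -0.07 for Cdk5i against wild type.

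Mef2c had 12923 to 18135 counts per library, and its spread between libraries was 19.4% with Cdk5i, 7.74% with the scrambled peptide and 10.7% in wild type (coefficient of variation). Cdk5i replicate 3 was also the library with the lowest summed excitatory neuron markers, 1270 CPM, against 1403 to 1640 CPM in the other 8. The next lowest sum, 1403 CPM, was that of wild-type replicate 1, the library highest in Mef2c. By group these sums averaged 1491 CPM with Cdk5i, 1472 CPM with the scrambled peptide and 1416 CPM in wild type. Camk2a was their largest part, at a mean of 534 CPM, and 7 of the 10 genes were lower in scrambled against wild type. In scrambled against wild type, the Mef2c difference stood beside a difference in the summed inhibitory neuron markers, genes such as Gad1, Sst and Erbb4. These 10 genes summed to 2956, 2910 and 2664 CPM with Cdk5i, 2430, 2425 and 2613 CPM with the scrambled peptide, and 2972, 3080 and 2684 CPM in wild type. The scrambled libraries were the lowest 3 of the 9. The Cdk5i sums overlapped those of wild type, while Mef2c averaged 635 CPM with either peptide and 742 CPM in wild type. Most of that sum came from Erbb4, Adarb2 and Kcnc2, which averaged 1058, 815 and 643 CPM. Erbb4 averaged 959 CPM in scrambled and 1162 CPM in wild-type libraries, and Adarb2 700 and 858 CPM. The enzyme of GABA synthesis Gad1 averaged 113 CPM with Cdk5i, 90.8 CPM with the scrambled peptide and 89.0 CPM in wild type. By gene, 5 of the 10 were higher and 5 lower in scrambled against wild type, so the low scrambled sum was not shared by the whole list. In Cdk5i against scrambled 8 of the 10 were higher. With the log2 of the inhibitory sum as a covariate, the Mef2c log2 fold change was 0.20 ± 0.15 for scrambled against wild type. For Cdk5i against scrambled it was -0.38 ± 0.14, and neither passed the threshold. The scrambled sums did not overlap those of the other groups. The covariate is thus nearly confounded with the scrambled group, and these values cannot be read as corrected for composition. In such bulk samples fewer cells of a type and less RNA per cell cannot be told apart, and the part of cell composition in these values was not tested further.

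**Figure D3:**
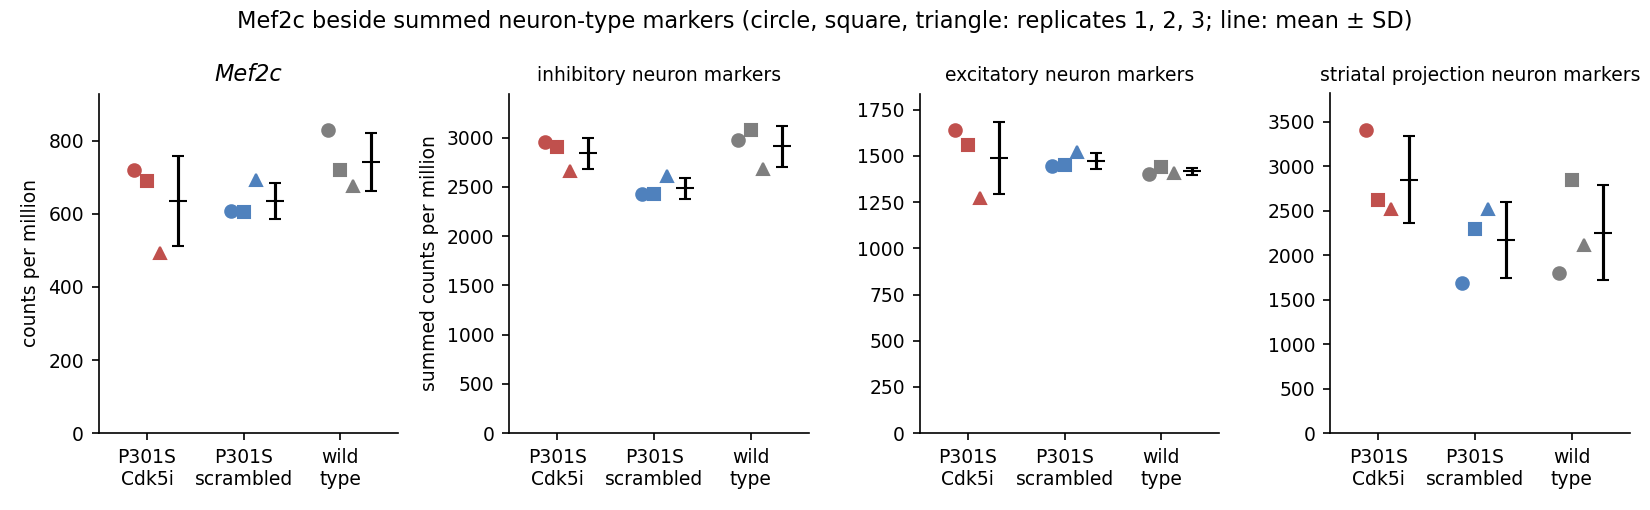
Mef2c beside summed neuron-type markers in each library (CPM; summed CPM for the marker lists; axes start at 0; symbols as replicate numbers 1, 2 and 3, lines as mean ± SD). The scrambled libraries hold the lowest 3 inhibitory sums, at most 2613 CPM, though only 5 of the 10 genes were lower than in wild type. Cdk5i replicate 3 is lowest both in Mef2c, at 494 CPM, and in excitatory markers, at 1270 CPM. Wild-type replicate 1, highest in Mef2c at 829.9 CPM, has the next lowest excitatory sum, 1403 CPM.

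Mef2a (ENSMUSG00000030557, chr7:67231163-67372858, minus strand) encodes a member whose activity Cdk5 is known to lower. It had 196, 178 and 179.8 CPM in the Cdk5i libraries, 172, 165 and 191 CPM in the scrambled libraries, and 186, 185 and 189 CPM in the wild-type libraries. The wild-type libraries lay close together, and both P301S groups had libraries above and below them. It was the most tightly bounded member. The log2 fold changes were -0.08 ± 0.07 for scrambled against wild type (interval -0.23 to 0.06), 0.07 ± 0.07 for Cdk5i against scrambled (interval -0.08 to 0.22) and -0.01 ± 0.07 for Cdk5i against wild type (interval -0.16 to 0.13). Folds beyond 0.852 to 1.16 lay outside the intervals of all 3 comparisons.

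Mef2d (ENSMUSG00000001419, chr3:88142372-88172086, plus strand) encodes the other member named above as a Cdk5 substrate. It had 76.4, 95.1 and 84.0 CPM in the Cdk5i libraries, 74.8, 78.7 and 84.1 CPM in the scrambled libraries, and 72.0, 71.0 and 81.6 CPM in the wild-type libraries. The means stood in the order Cdk5i (85.2 ± 9.41 CPM), scrambled (79.2 ± 4.68 CPM) and wild type (74.9 ± 5.85 CPM), and the libraries of neighbours in that order overlapped. Cdk5i against wild type gave a log2 fold change of 0.19 ± 0.08 (interval 0.00 to 0.37), with an unadjusted p of 0.0463 and an adjusted p of 0.444 by edgeR. In that comparison 2 of 3 Cdk5i libraries exceeded all wild-type libraries, and without Cdk5i replicate 2, the highest, the value was 0.10. Cdk5i against scrambled gave 0.11 ± 0.08 (interval -0.08 to 0.29), and scrambled against wild type 0.08 ± 0.08 (interval -0.10 to 0.26).

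Mef2b (ENSMUSG00000079033, chr8:70139711-70167488, plus strand), the most divergent member of the family, was near the floor of detection, with 39 to 68 counts per library. It had 3.04, 2.51 and 2.56 CPM in the Cdk5i libraries, 2.39, 2.68 and 2.30 CPM in the scrambled libraries, and 2.18, 1.83 and 2.86 CPM in the wild-type libraries. The groups overlapped, and both the lowest and the second highest library were wild type. Its log2 fold changes were 0.10 ± 0.20 for scrambled against wild type, 0.14 ± 0.20 for Cdk5i against scrambled and 0.23 ± 0.20 for Cdk5i against wild type. The last had an interval of -0.20 to 0.67, so folds of up to 1.59 lie inside it.

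**Figure D4:**
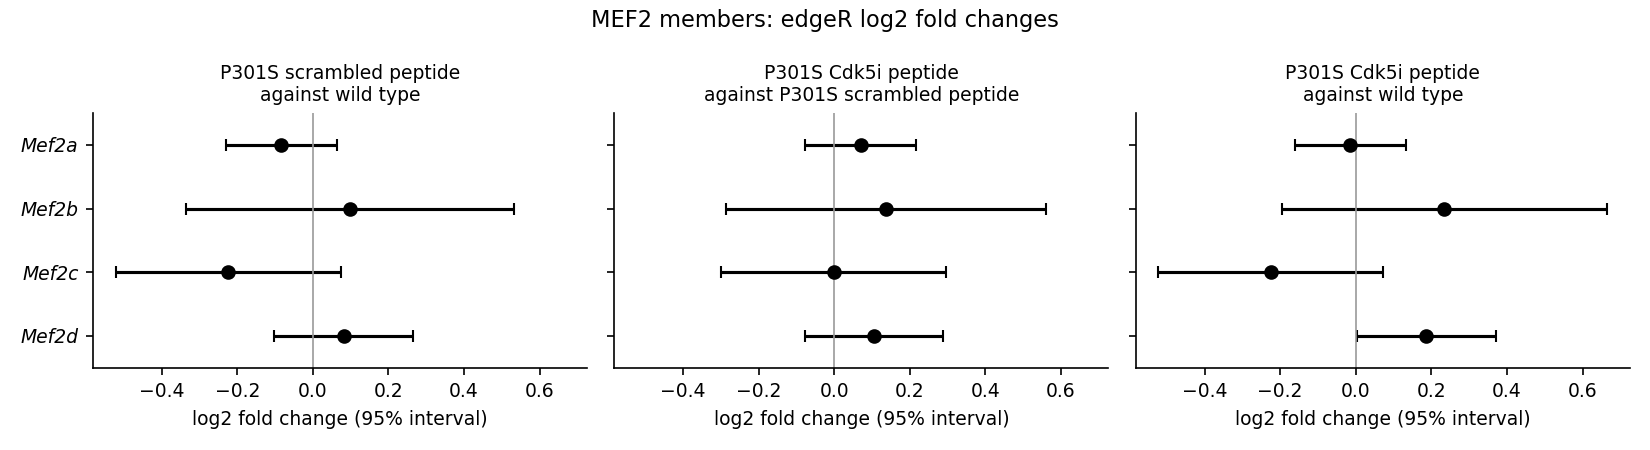
Log2 fold changes of the 4 MEF2 genes in the 3 comparisons (points, edgeR estimate; bars, 95% interval; the vertical line marks 0). The interval of Mef2d in Cdk5i against wild type, 0.00 to 0.37, begins just above 0 before adjustment for the genes tested, and the other intervals include 0.

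Neighbouring genes could touch these counts at some of the loci. Lysmd4 lies on the opposite strand over 53.8% of Mef2a and had 162 to 236 counts per library, against 3753 to 4815 for Mef2a; counting used the strand. Gm44667 and Gm44668 lie inside Mef2a on its strand and had 0 counts in every library. Borcs8 shares the strand and 27.4% of the length of Mef2b, and read pairs that fall in both genes were counted for neither, so the Mef2b level leaves out reads from that part; Borcs8 itself had 1 to 8 counts. 1700113A16Rik overlaps 1.8% of Mef2d on the opposite strand, with 5 to 17 counts. No gene overlaps Mef2c: the nearest gene before it, 2310067P03Rik, ends 309687 bases away and averaged 0.927 CPM with Cdk5i, 1.33 CPM with the scrambled peptide and 0.809 CPM in wild type. None of the overlapping or nearest genes that were tested passed the threshold. Borcs8, Gm44667 and Gm44668, and the nearest genes Gm33926, Gm48067, Iqgap3 and AI849053, were under the filter on low counts and not tested.

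Of the genes with a mean of at least 20 CPM, those whose log2 CPM followed each member most closely over the 9 libraries were named as a description. For Mef2c they included Pcdh7 (Pearson r = 0.97, Spearman rho = 0.92) and Trhde (r = 0.96, rho = 0.92). For Mef2a they were Cnot2 (r = 0.91, rho = 0.90), Fam171b (r = 0.90, rho = 0.93) and Creb1 (r = 0.90, rho = 0.93). For Mef2d they were Spindoc (r = 0.93, rho = 0.90), Hdac5 (r = 0.92, rho = 0.88) and Dnajb5 (r = 0.92, rho = 0.97). For Mef2b they were Ppp3r1 (r = 0.87, rho = 0.83), Senp3 (r = 0.85, rho = 0.78) and Usp38 (r = 0.83, rho = 0.85). These are the highest of about 5884 genes over only 9 libraries, which share depth, dissection and sort, so high values are reached by selection. Without the 2 libraries farthest from the member's median, r was 0.80 to 0.97 for the pairs named here except Mef2b with Senp3, at 0.52.

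The kinases and phosphatases that act on MEF2 were examined next. Of 36 listed genes 35 were tested and 0 passed the threshold in any comparison by edgeR, DESeq2 or limma-voom, with 9 genes at an unadjusted p under 0.05 in scrambled against wild type, 1 in Cdk5i against scrambled and 8 in Cdk5i set against wild type. Over all genes tested, 10.1%, 5.33% and 11.03% reached that unadjusted level in the same order. Their median log2 fold changes were 0.05, 0.01 and 0.07, against 0.01, -0.01 and -0.01 over all genes tested. Cdk5, the kinase the peptide targets, had 14.8, 18.7 and 16.7 CPM with Cdk5i, 19.1, 22.0 and 16.1 CPM with the scrambled peptide and 16.3, 15.3 and 16.2 CPM in wild type. These groups overlapped, and the log2 fold changes were 0.26 ± 0.12 for scrambled against wild type and -0.19 ± 0.12 for Cdk5i against scrambled (edgeR adjusted p = 0.477 and 0.951). Cdk5r1, the activator p35 of Cdk5, averaged 17.5 CPM with Cdk5i, 19.2 CPM with the scrambled peptide and 19.3 CPM in wild type. Cdk5r2, a second activator, had 0 counts in every library.

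The highest and lowest values among genes of at least 5 CPM came in part from calmodulin-dependent kinases, a class with many genes in the list. None passed the threshold. Camkk1, a kinase that activates other calmodulin-dependent kinases, gave 0.36 ± 0.13 in Cdk5i against wild type and 0.34 ± 0.13 in scrambled against wild type on the log2 scale. Next to it came Sik2, a salt-inducible kinase, at 0.35 in Cdk5i against wild type, and Camk1g, another calmodulin-dependent kinase, at 0.33 in scrambled against wild type. Camk2d, a subunit of calmodulin-dependent kinase II, had 185, 275 and 231 CPM with Cdk5i, 228, 198 and 191 CPM with the scrambled peptide and 314, 238 and 267 CPM in wild type. All scrambled libraries lay below all wild-type libraries, and the log2 fold change was -0.41 ± 0.15 (edgeR adjusted p = 0.416). These groups were fully apart, in either direction, in 16.3% of all genes tested. Prkd1, which phosphorylates class IIa deacetylases, gave -0.39 ± 0.16 for scrambled against wild type and 0.42 ± 0.16 for Cdk5i against scrambled, with 126, 87.4 and 105 CPM in Cdk5i, 66.5, 77.4 and 94.4 CPM in scrambled and 95.5, 113 and 103 CPM in wild-type libraries. After Prkd1, the highest value between the peptides was that of Camk2d at 0.16. The lowest were Camk1g at -0.23 and Calm3, a calmodulin gene, at -0.22, and in Cdk5i against wild type the lowest was Camk2d at -0.24.

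**Figure D5:**
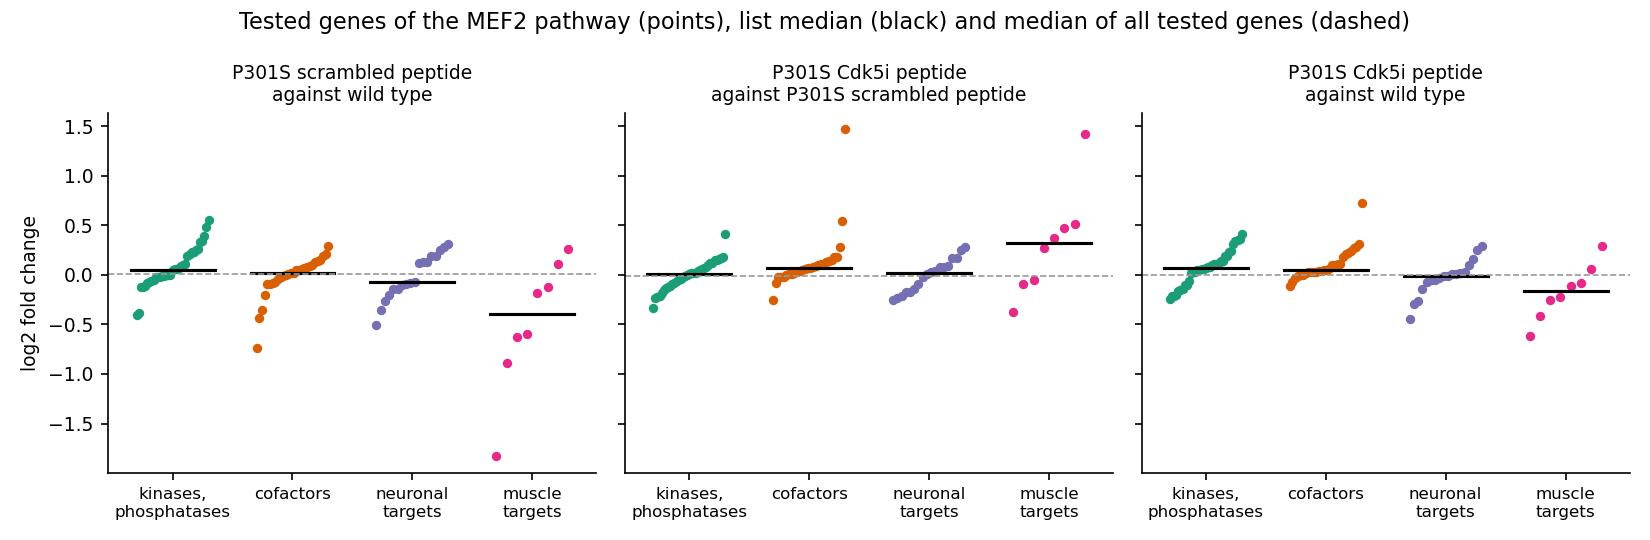
Log2 fold changes of the tested genes of 4 MEF2 pathway lists in the 3 comparisons (each point 1 gene, sorted within its list; black bar, list median; dashed line, median of all genes tested). No point passed the threshold. The highest cofactor, in Cdk5i against scrambled, is Nfatc1 at 1.47, a gene with a mean of only 1.11 CPM that was singled out after its values were seen.

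Corepressors and coactivators of MEF2 gave 28 tested genes of 30, with 0 past the threshold by edgeR and limma-voom in any comparison. At an unadjusted p under 0.05 the counts were 5, 5 and 6 of 28 in the same order, beside 10.1%, 5.33% and 11.03% of all genes tested. Their medians were 0.02, 0.07 and 0.05 log2 units, and 22 of 28 values were positive in both Cdk5i against scrambled and Cdk5i against wild type, comparisons that share the Cdk5i libraries and in which 47.2% and 48.8% of all genes tested were positive. The cofactor gene with the lowest adjusted p was Hdac9, a class IIa histone deacetylase that binds MEF2 and is itself a known MEF2 target. It had 787, 822 and 681 CPM in the Cdk5i libraries, 604, 588 and 696 CPM in the scrambled libraries, and 790.2, 835 and 787 CPM in the wild-type libraries. All scrambled libraries lay below all wild-type libraries, while Cdk5i and scrambled libraries overlapped. Scrambled and wild-type libraries were fully apart in 16.3% of all genes tested. The log2 fold change was -0.35 ± 0.09 for scrambled against wild type, with an adjusted p of 0.244 by edgeR 0.0306 by DESeq2 and 0.00047 by edgeR without the low-count filter, so that its call depended on the method. Cdk5i against scrambled gave 0.28 ± 0.09 (edgeR adjusted p = 0.768, and 0.0179 without the low-count filter), and Cdk5i against wild type -0.08 ± 0.09.

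Its relatives Hdac4 and Hdac5 followed other patterns. Hdac5 had 65.4, 85.0 and 70.6 CPM with Cdk5i, 64.2, 66.6 and 74.8 CPM with the scrambled peptide and 55.6, 59.8 and 62.7 CPM in wild type. Both P301S groups lay wholly above wild type, at log2 fold changes of 0.31 ± 0.09 for Cdk5i and 0.21 ± 0.09 for scrambled (edgeR adjusted p = 0.273 and 0.493). Each P301S group was fully apart from wild type, in either direction, in 16.3% of all genes tested. Hdac4 averaged 307 CPM with Cdk5i, 279 CPM with the scrambled peptide and 296 CPM in wild type, with overlapping groups. Srf, a MADS-box partner protein, averaged 10.05 CPM with Cdk5i, 10.7 CPM with the scrambled peptide and 9.35 CPM in wild type, and its -0.09 was among the lowest values between the peptides. Of the other extremes, Pias4, a SUMO ligase, gave 0.29 for scrambled against wild type and -0.25 for Cdk5i against scrambled, Vgll4 gave -0.21 for scrambled and -0.11 for Cdk5i against wild type, the acetyltransferase gene Kat2b gave 0.18 between the peptides, and Tead1 gave 0.28 for Cdk5i against wild type.

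Neuronal MEF2 targets showed 0 of 18 tested genes past the threshold by edgeR and limma-voom in the 3 comparisons, of 20 listed. By DESeq2 the only one was Hdac9, which stands in both lists. At an unadjusted p under 0.05 there were 5, 2 and 4 of 18, beside 10.1%, 5.33% and 11.03% of all genes tested, and the medians were -0.08, 0.02 and -0.01 log2 units. Arc, Nr4a1 and Bdnf are induced by neuronal activity and are classic targets. Arc had 6.25, 43.5 and 16.3 CPM with Cdk5i, 18.0, 15.7 and 41.2 CPM with the scrambled peptide and 15.8, 10.9 and 38.7 CPM in wild type. Each group held 1 library well above the others, and the interval of Cdk5i against scrambled ran from -2.16 to 1.82 log2 units. Nr4a1 had 15.6, 43.5 and 25.4 CPM with Cdk5i, 25.4, 23.4 and 51.9 CPM with the scrambled peptide and 24.7, 19.6 and 40.0 CPM in wild type, with the same library highest in each group as for Arc; its log2 fold changes were 0.26 ± 0.51 for scrambled against wild type and -0.25 ± 0.51 for Cdk5i against scrambled. Bdnf averaged 24.5 CPM with Cdk5i, 27.7 CPM with the scrambled peptide and 33.4 CPM in wild type, and its log2 fold change was -0.44 ± 0.37 for Cdk5i against wild type and -0.17 ± 0.37 for Cdk5i against scrambled.

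Targets that vary less between libraries were bounded more closely. Kcna1, a potassium channel gene, had 44.4, 46.2 and 40.8 CPM with Cdk5i, 43.0, 45.3 and 45.5 CPM with the scrambled peptide and 34.9, 38.8 and 36.8 CPM in wild type. Both P301S groups lay above wild type, with log2 fold changes of 0.25 ± 0.07 for Cdk5i and 0.28 ± 0.07 for scrambled (edgeR adjusted p = 0.24 and 0.253). Over all genes tested, 16.3% had groups fully apart in each of these comparisons. Adcy8, a calcium-stimulated adenylyl cyclase, had 191, 239 and 162 CPM with Cdk5i, 161, 152 and 186 CPM with the scrambled peptide and 271, 200.5 and 239 CPM in wild type. Scrambled libraries lay below wild type, a separation seen in either direction in 16.3% of all genes tested. The log2 fold change was -0.51 ± 0.16 (edgeR adjusted p = 0.347), and Cdk5i against scrambled gave 0.25 ± 0.16. Klf6, a Krüppel-like factor, gave -0.29 ± 0.12 for Cdk5i against wild type.

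Muscle genes that MEF2 drives in heart and skeletal muscle were nearly silent. Of 18 listed genes 8 were tested, 0 of them past the threshold in any comparison by edgeR, DESeq2 or limma-voom, with 3, 1 and 1 of 8 at an unadjusted p under 0.05, beside 10.1%, 5.33% and 11.03% of all genes tested. Ckm, Myog, Actc1 and Tnni2 had at most 1 count in any library. Their medians were -0.39, 0.32 and -0.17 log2 units over 8 genes of mostly few counts. Ttn, the giant sarcomere gene titin, was the only one at 5 CPM or more. It had 15.8, 24.7 and 19.8 CPM with Cdk5i, 17.6, 13.3 and 11.4 CPM with the scrambled peptide and 23.5, 15.2 and 25.3 CPM in wild type. The groups overlapped, and the log2 fold change was -0.60 ± 0.25 for scrambled against wild type and 0.52 ± 0.25 for Cdk5i against scrambled (edgeR adjusted p = 0.475 and 0.933).

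The promoters of the members and of their pathway were read for the MEF2 consensus element, the A/T-rich sequence the family binds. The window ran from 250 bases before to 50 bases after the start site (RefSeq, GRCm38.p6). The consensus pattern, though not every match to it, reads the same on both strands, so 1 scan covers both. Overlap with other motifs was not examined. Of all 32851 promoters in the table, 3.19% held it, and of the 27025 genes they belong to 3.70% had at least 1 promoter with it. Of the 6 promoters of the 4 members 1 did, that of Mef2a, where it spans the start site. Among the neuronal targets 2 of the 15 genes with a promoter in the table held it, Jun and Klf2, among the cofactors 2 of 22, Hdac5 and Mrtfb, among the muscle targets 2 of 14, Xirp2 and Ttn, and among the kinases and phosphatases 0 of 26. These small counts describe the window only, and a match is not a bound site. Windows around the element are printed for Mef2a, for the neuronal targets and for Hdac5, with the element in capitals, on the gene's strand.
Mef2a, chr7:67372831-67372880: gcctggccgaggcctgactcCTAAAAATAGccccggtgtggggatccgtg
Jun, chr4:95052226-95052275: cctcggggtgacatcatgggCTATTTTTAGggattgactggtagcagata
Klf2, chr8:72318924-72318973: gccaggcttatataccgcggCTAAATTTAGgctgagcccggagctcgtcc
Hdac5, chr11:102230163-102230212: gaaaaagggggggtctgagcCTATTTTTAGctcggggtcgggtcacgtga

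Mef2a carries the same 10 bases as Xirp2, and Jun the same as Hdac5. The Jun sequence is the reverse complement of that of Mef2a, so these promoters hold the same element in opposite directions. Of the genes printed, Mef2a and Hdac5 are described above. Jun, a stress-responsive transcription factor, averaged 3.64 CPM with Cdk5i, 3.48 CPM with the scrambled peptide and 3.71 CPM in wild type, and its log2 fold changes lay between -0.09 and 0.08. Klf2, a Krüppel-like factor, had 1 to 8 counts per library and was not tested.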

How the data were processed

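The authors deposited raw read-pair counts per gene, 1 file per library. Per the file headers they were made with featureCounts on the Ensembl GRCm38 annotation, over whole genes, in reverse-stranded paired-end mode, and the submitters' processing notes name STAR 2.7.9a, Subread 2.0.0 and DESeq2 1.36.0. RNA came from sorted nuclei with a kit for fixed tissue, and libraries from a pico-input stranded total RNA kit, per the labels' protocols. Reads were 40 bases long. Here genes were kept by filterByExpr (16046 of 55401), scaled by TMM and tested with edgeR 4.0.16 in R 4.3.3 (robust quasi-likelihood fit over all 9 libraries in 3 groups, Benjamini-Hochberg adjustment over all genes tested, threshold 0.05). The fit was tested on simulated data. CPM use TMM-scaled totals, and lengths are those in the files. Alternatives were DESeq2 1.42.0, limma-voom (limma 3.58.1), other scalings and filters, marker covariates, a replicate block and leaving out each library. No 2 libraries of the same group agreed within sampling noise. The members and gene lists were chosen with earlier results of these data known. Named pathway genes were Cdk5, Cdk5r1, Hdac4, Hdac5, Hdac9, Nr4a1, Arc, Bdnf and Srf, and per list and comparison the 2 highest and 2 lowest log2 fold changes among genes of at least 5 CPM. A few genes that this rule names are not reported here.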

Additional observations from a re-analysis of the deposited data

How the results depend on the processing

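No MEF2 member passed the threshold under any of the 21 alternatives run, and the lowest adjusted p was 0.19, for Mef2c in scrambled against wild type without the low-count filter. The direction of a member's log2 fold change turned in these cases, all with the cause not tested. With the inhibitory marker covariate, scrambled against wild type gave 0.0043 for Mef2a, -0.21 for Mef2b and 0.20 for Mef2c, and Cdk5i against scrambled gave -0.0061 for Mef2a. For Mef2c in Cdk5i against scrambled (-0.0015 as reported), DESeq2 gave 0.0084, DESeq2 size factors 0.0084 and no low-count filter 0.0077. Its values without 1 library ran from -0.10 to 0.16. The inhibitory marker covariate did not turn this direction but gave a larger value, -0.38 ± 0.14 (SE). Without 1 library, Mef2b in scrambled against wild type ran from -0.041 to 0.29, and Mef2a in Cdk5i against wild type from -0.059 to 0.012. Mef2c took 69.6%, 71.1% and 73.7% of the family's counts without the gene length in Cdk5i, scrambled and wild-type libraries, and 47.4%, 49.3% and 53.7% per kilobase.

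Counts of pathway genes past the threshold, 0 in the fits reported, were 1 by DESeq2 (Hdac9) and 6 without the low-count filter in scrambled against wild type, 3 without it in Cdk5i against scrambled, and 7 without it in Cdk5i against wild type. A striatal marker covariate, chosen after seeing the data, gave 1 (Ttn) in scrambled against wild type and 1 (Ttn) in Cdk5i against scrambled.

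Counts over all genes depended strongly on the setting. For scrambled against wild type (13) they were 75 by DESeq2, 5 by limma-voom, 318 without the low-count filter, 5 at a mean count of at least 50, 2 with the replicate block, 5 with the inhibitory and 28 with the striatal covariate, 6 with non-robust dispersion, and 2 to 17 without 1 library. For Cdk5i against scrambled (2) they were 27 by DESeq2, 159 without the filter, 1 with the inhibitory and 9 with the striatal covariate, and 2 to 18 without 1 library. For Cdk5i against wild type (12) they were 111 by DESeq2, 4 by limma-voom, 408 without the filter, 1 at a mean count of at least 50, 2 with only the groups compared, 2 with the replicate block, 21 with the inhibitory covariate, 3 with non-robust dispersion, and 2 to 7 without 1 library. Same-numbered libraries correlated at -0.31 to 0.17 in their deviations from group means. The same number was the best match for replicates 1 and 2 in scrambled against wild type, and for none in the other comparisons. With 3 libraries a group, this check cannot settle whether equal replicate numbers mark paired libraries.

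With 3 libraries a group, a 95% interval reached a median of 0.30 log2 units to either side over all genes tested. Mef2b rests on 39 to 68 counts.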
